A study of Mus musculus with 30 samples.

Results

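The comparison set repopulated adult microglia beside neonatal microglia, both of which carry cell-cycle mRNA, in the offspring of saline-treated dams. Its members are the 3 Saline + MG-REP libraries and the 3 P7 Saline libraries, which are 6 of the 30 libraries of the series, taken by their labels and compared over all 14225 transcripts of the deposited expression table. The question was how far the microglia of a brain that has been emptied and refilled resemble microglia of the first postnatal week.

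All libraries came from C57BL/6J mice, from cells of the whole brain that bound CD11B beads. P7 Saline libraries were made from offspring of saline-injected dams at postnatal day 7, and each pooled 3 brains. Saline + MG-REP libraries were made at postnatal day 60, each from 1 brain of an animal of saline-injected dams that had eaten chow with PLX5622 as a juvenile and then returned to control chow. PLX5622 inhibits CSF1R, the receptor on which microglia depend for survival, so the chow removes most microglia, and those that remain refill the brain once it is withdrawn. E17 Saline libraries, each from the pooled brains of 1 litter at embryonic day 17, and P20 Saline libraries, from single brains at postnatal day 20, give other ages of saline offspring. Saline + CTRL libraries, also at postnatal day 60 with 1 brain each, came from saline offspring that ate only control chow and are given as the adult level. MIA + MG-REP and P7 MIA libraries came from offspring of dams injected with poly(I:C), a mimic of viral RNA that starts maternal immune activation. P7 MIA libraries were made at postnatal day 7, and each pooled 3 brains. MIA + MG-REP libraries were made at postnatal day 60, each from 1 brain, after the same PLX5622 and control chow as Saline + MG-REP. Each of these groups had 3 libraries. Age, pooling of brains, chow and the sex of the animals, as read from Y-linked mRNA, all differ between Saline + MG-REP and P7 Saline, so that their parts in a difference cannot be told apart.

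Microglia are the resident macrophages of the brain. They enter it from the yolk sac before birth, divide in place during the first postnatal weeks, and then settle into a surveying state that is held by TGF-β signalling and by transcription factors such as SALL1. Dividing cells first copy their DNA with the MCM helicase, polymerases and the clamp PCNA, and then separate the copies with cyclin B and CDK1, kinesins and the proteins of the kinetochore. Most genes of the second step are held silent outside the cycle by the DREAM complex, which binds a promoter element called CHR, and are switched on together by B-MYB and FOXM1, often with NF-Y at CCAAT boxes.

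Because mitotic genes set the repopulated libraries apart from untreated adult ones and most interferon-stimulated genes set them apart from P7 Saline, the start regions of 4 mitotic and 2 interferon-stimulated genes are shown. Each is the 200 bases before 1 RefSeq start site, read 5′ to 3′ on the gene's strand, from GRCm38.p6. In Mki67 and Top2a the annotated gene also reaches upstream of that start, so that the shown bases overlap the gene's span given with its values. Capitals mark, on either strand, a CHR, spelled TTTGAA, or a CCAAT box, spelled as its name. In Oas3 and Ifit3 they also mark an interferon-stimulated response element, which repeats GAAA after a gap of any 2 bases. A CCAAT box on one strand overlaps one on the other in Ube2c. The 4 mitotic genes encode a ubiquitin-conjugating enzyme that helps send cyclins for destruction (Ube2c) and a coat protein of mitotic chromosomes (Mki67). They also encode the mitotic kinase (Cdk1) and the topoisomerase that untangles sister DNA (Top2a). Oas3 makes a messenger that activates RNase L on viral RNA, and IFIT3 binds IFIT1, which holds back translation of foreign RNA.
Ube2c, chr2:164769729-164769928, plus strand: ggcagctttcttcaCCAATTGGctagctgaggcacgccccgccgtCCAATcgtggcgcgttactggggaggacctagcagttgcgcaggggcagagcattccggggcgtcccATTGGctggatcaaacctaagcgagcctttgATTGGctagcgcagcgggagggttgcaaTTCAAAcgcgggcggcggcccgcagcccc
Mki67, chr7:135716380-135716579, minus strand: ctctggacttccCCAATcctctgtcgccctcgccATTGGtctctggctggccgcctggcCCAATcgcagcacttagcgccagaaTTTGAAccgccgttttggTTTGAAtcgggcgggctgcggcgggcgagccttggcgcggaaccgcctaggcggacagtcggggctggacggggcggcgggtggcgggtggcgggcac
Cdk1, chr10:69352913-69353112, minus strand: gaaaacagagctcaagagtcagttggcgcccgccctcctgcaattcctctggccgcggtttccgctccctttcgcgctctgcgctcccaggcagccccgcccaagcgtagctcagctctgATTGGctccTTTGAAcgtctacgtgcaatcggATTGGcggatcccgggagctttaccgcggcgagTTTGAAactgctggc
Top2a, chr11:99024190-99024389, minus strand: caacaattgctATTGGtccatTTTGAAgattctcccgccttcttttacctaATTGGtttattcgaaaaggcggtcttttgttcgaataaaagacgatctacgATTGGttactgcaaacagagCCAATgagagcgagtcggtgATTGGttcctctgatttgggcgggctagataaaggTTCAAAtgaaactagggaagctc
Oas3, chr5:120777660-120777859, minus strand: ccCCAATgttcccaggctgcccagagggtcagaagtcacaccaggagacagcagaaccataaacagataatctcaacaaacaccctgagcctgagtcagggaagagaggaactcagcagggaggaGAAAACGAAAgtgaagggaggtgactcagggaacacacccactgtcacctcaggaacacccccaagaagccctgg
Ifit3, chr19:34583329-34583528, plus strand: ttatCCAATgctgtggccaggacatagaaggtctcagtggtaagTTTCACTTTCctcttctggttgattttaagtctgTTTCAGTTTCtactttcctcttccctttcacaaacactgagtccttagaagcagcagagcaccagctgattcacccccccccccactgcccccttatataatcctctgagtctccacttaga

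Among the 39 mitosis genes with a RefSeq start region, 16 (41.0%) held a CHR within 250 bases before the start, compared with 10.5% of 10158 expressed genes and 16.3% of all 27025 genes. A CHR and a CCAAT box together stood before 15 of the 39 (38.5%), compared with 4.03% of expressed genes and 5.73% of all genes. Of 28 DNA replication genes, 3 (10.7%) held a CHR, and 7 (25.0%) held an E2F site (GCGGGAA), which 6.7% of expressed genes and 3.84% of all genes held and no mitosis gene did. CCAAT boxes alone were common, at 74.4% of mitosis genes, 60.7% of DNA replication genes, 35.7% of expressed genes and 34.5% of all genes. The response element stood before 15 of 33 interferon response genes (45.5%), compared with 2.64% of expressed genes and 3.04% of all genes. These are matches of letters and were not tested as binding sites.

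The libraries were of similar size. Of the Saline + MG-REP libraries, replicate 1 stood apart by its mitotic mRNA and replicate 2 by mRNA of neutrophils. From the steps between low TPM values, the 6 libraries held between 9330000 and 11760000 reads assigned to transcripts. Markers of microglia made up 98.4 ± 0.362% of the summed cell-type markers in P7 Saline and 98.0 ± 0.842% in Saline + MG-REP (SD, n = 3 each). Csf1r, the receptor that the drug blocks, was abundant in all 6 libraries. Csf1r lay at 4990.24, 5106.71 and 5605.85 TPM in P7 Saline and at 4498.31, 4948.44 and 4904.49 TPM in Saline + MG-REP, with a log2 fold change of −0.13 (SE 0.19, limma adjusted p = 0.627). The Y-linked genes Ddx3y, Kdm5d, Eif2s3y and Uty were near 0 in Saline + MG-REP and present together with Xist in P7 Saline, so that the P7 pools held both sexes and next to no Y-linked mRNA was found in the repopulated brains. In bulk RNA of this kind, fewer cells of a type and less RNA per cell cannot be told apart.

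Over the whole table, 5498 of 14225 transcripts (38.7%) differed between Saline + MG-REP and P7 Saline at an adjusted p under 0.05 in limma on log2(TPM + 1), of which 1609 (11.3%) were higher and 3889 (27.3%) lower in the repopulated cells. The 3 and 3 libraries did not overlap for 6550 transcripts (46.0%), and 4985 (35.0%) were called and did not overlap, 1433 higher (10.1%) and 3552 lower (25.0%). An unadjusted p under 0.05 was found for 6706 (47.1%). The 95% interval of the fold change lay within 2-fold in either direction for 8193 transcripts (57.6%), here called within 2-fold. A difference of at least 2-fold was called for 873 transcripts that were higher (6.14%) and 1456 that were lower (10.2%), and one of at least 8-fold for 87 (0.612%) and 84 (0.591%). The median log2 fold change of all transcripts was −0.18, and median-ratio scaling moved it by 0.20, which left 2599 higher and 2382 lower calls in place of the uneven split. Directions of lists whose median lies near −0.18 are therefore given under both scales.

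For comparison, adult microglia that were never depleted, Saline + CTRL, differed from P7 Saline in 5834 transcripts (41.0%), 2296 higher and 3538 lower. Between Saline + MG-REP and Saline + CTRL 3805 differed (26.7%). These comparisons share libraries with the one above. In root mean square distance over all transcripts, on the log2(TPM + 1) scale, a Saline + MG-REP library stood 0.983 ± 0.05 from a P7 Saline library (SD over 9 pairs, which share libraries), 1.036 ± 0.057 from E17 Saline, 0.851 ± 0.167 from P20 Saline and 0.834 ± 0.17 from Saline + CTRL. The ranges of the pairs with P7 Saline (0.927 to 1.061) and with Saline + CTRL (0.691 to 1.149) overlapped. The distance to MIA + MG-REP was 0.731 ± 0.186, below each of these means. Without Saline + MG-REP replicate 1 the mean distances were 0.973 to P7 Saline and 0.727 to Saline + CTRL. Without replicate 2 they were 0.998 and 0.885, and without replicate 3 0.979 and 0.889. A P7 Saline library stood 0.998 ± 0.061 from a Saline + CTRL library, about as far as from a Saline + MG-REP library. Libraries of the same group stood 0.434 apart on average in P7 Saline and 0.586 apart in Saline + MG-REP, or 0.365 without its replicate 1. Over the 82 genes of DNA replication and mitosis the order turned. There the distance was 0.826 ± 0.32 to P7 Saline, 0.834 ± 0.322 to E17 Saline, 2.452 ± 0.546 to P20 Saline and 2.614 ± 0.552 to Saline + CTRL, and the highest pair with P7 Saline (1.136) stood below the lowest pair with Saline + CTRL (2.11). The order over all transcripts depended on the measure. The median absolute difference was 0.463 to P7 Saline, 0.447 to E17 Saline, 0.434 to P20 Saline and 0.416 to Saline + CTRL. By that measure E17 Saline was nearer than P7 Saline.

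**Figure D1:**
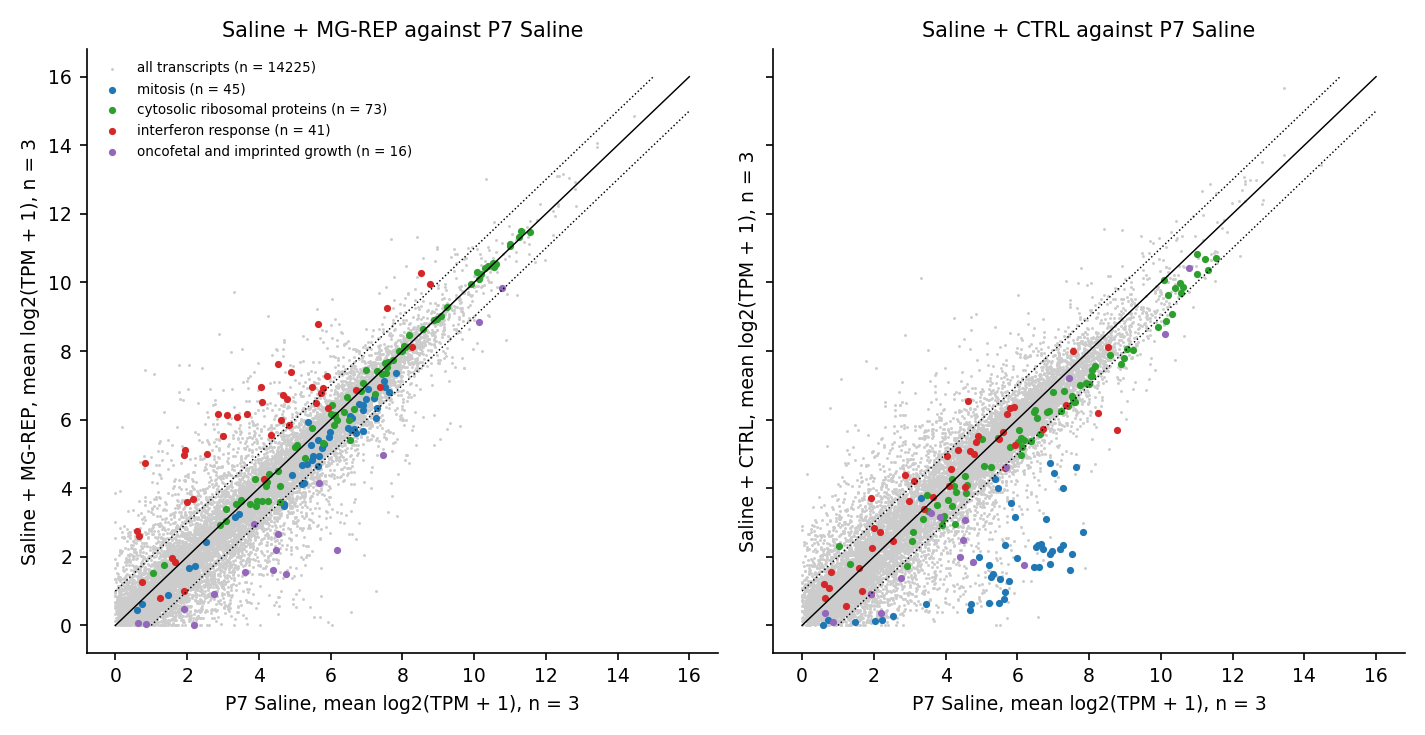
Mean log2(TPM + 1) of each of 14225 transcripts in Saline + MG-REP (left) and Saline + CTRL (right), each n = 3, against P7 Saline (n = 3). The solid line marks equal levels and dotted lines 2-fold differences; mitosis genes (45) lie mostly somewhat under the line on the left (median −0.56) and far under it on the right, ribosomal protein genes (73) lie on it on the left, interferon response genes (41) lie mostly above it on the left, and oncofetal genes (16) lie under it in both.

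Mitotic mRNA was at or above the neonatal level in 1 repopulated library, below it in the other 2, and at a small fraction of it in untreated adults. Mki67, whose protein marks cycling cells, lay at 176.34, 171.11 and 200.12 TPM in P7 Saline, at 234.48, 93.87 and 82.9 TPM in Saline + MG-REP replicates 1 to 3 and at 3.84, 3.19 and 2.77 TPM in Saline + CTRL. Replicate 1 of Saline + MG-REP stood above every P7 Saline library, the other 2 stood below every P7 Saline library, and all 3 stood far above the adult libraries. The log2 fold change to P7 Saline was −0.57 (SE 0.24, adjusted p = 0.0659), and without replicate 1 it was −1.04 (adjusted p = 4.58e-05), while that of Saline + CTRL to P7 Saline was −5.43 (adjusted p = 9.68e-14). Top2a repeated this arrangement, with 179.17, 245.26 and 262.61 TPM in P7 Saline, 319.67, 119.7 and 110.21 TPM in Saline + MG-REP and 5.7, 7.17 and 4.38 TPM in Saline + CTRL (log2 fold change to P7 Saline −0.48, SE 0.28, adjusted p = 0.183, and −0.97 with adjusted p = 0.00158 without replicate 1). So did Ube2c, at 151.32, 186.82 and 196 TPM, then 260.78, 115.5 and 85.83 TPM, then 4.16, 2.66 and 0.52 TPM (−0.36, SE 0.35, adjusted p = 0.441). In Mki67, Top2a and Ube2c alike the 3 repopulated libraries spanned the 3 neonatal ones, with 1 above and 2 below. Mki67 is at chr7:135689784-135716450, Top2a at chr11:98992947-99024199 and Ube2c at chr2:164769929-164772902 of GRCm38.p6.

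Of 45 mitosis genes measured, 17 fell relative to P7 Saline and none rose, and 14 were within 2-fold, beside 27.3% of all transcripts that were lower and 57.6% within 2-fold. At a mean of at least 10 TPM, 7 of 37 (18.9%) were within 2-fold, beside 64.4% of all transcripts. The median log2 fold change was −0.56 over the list and −0.18 over all transcripts. Under median-ratio scaling 10 fell and none rose. In Saline + CTRL, 44 of the 45 were lower than in P7 Saline, with a median of −4.0, beside 24.9% of all transcripts. Against Saline + CTRL the repopulated microglia were higher in 44 of 45, with none lower, beside 11.9% of all transcripts. Those within 2-fold included Ccna2 (cyclin A, 125.4 and 107.9 TPM on average), Plk1 (a mitotic kinase, 62.12 and 54.76 TPM), Bub1b (a spindle checkpoint kinase, 91.66 and 74.47 TPM), Nuf2 (a kinetochore protein, 51.24 and 45.15 TPM) and Smc4 (a condensin subunit, 131.3 and 124.8 TPM). Without replicate 1 all 5 of these were called lower, with log2 fold changes between −0.88 (Ccna2, adjusted p = 0.00409, and Bub1b, adjusted p = 0.000244) and −0.48 (Smc4, adjusted p = 0.0207). The fall was deepest for Cdk1, at 171.72, 147.45 and 142.45 TPM in P7 Saline and 125.25, 46.93 and 46.12 TPM in Saline + MG-REP, where all 3 repopulated libraries lay under the neonatal ones (log2 fold change −1.23, SE 0.22, adjusted p = 0.000138). Ccnb1, which encodes the cyclin that activates CDK1, fell by 1.16 on the log2 scale (SE 0.31, adjusted p = 0.0043), and Foxm1 by 1.07 (adjusted p = 0.00107).

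The repopulated libraries were not alike in these genes. In replicate 1, 26 of the 45 mitosis genes lay above the range of the P7 Saline libraries, 9 within it and 10 below it, with a median difference of 0.19 from the P7 Saline mean on the log2 scale. In replicates 2 and 3, 41 and 42 of the 45 lay below that range, with medians of −0.92 and −1.03. The corresponding medians of the 3 Saline + CTRL libraries lay between −4.23 and −3.76. Without replicate 1, 37 of 45 mitosis genes fell and none rose, with a median of −0.98, and without replicate 2 or 3 only 11 or 9 fell. Replicate 1 thus carried mitotic mRNA at or above the neonatal level for most of the list, and replicates 2 and 3 carried it at a lower level that stood apart from neonatal and adult libraries alike. The summed level of the list shows the same order, at 3229, 3297 and 3560 TPM in P7 Saline, 4005, 1716 and 1533 TPM in Saline + MG-REP and 243.9, 253.6 and 211.8 TPM in Saline + CTRL.

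Genes of DNA replication were arranged likewise, over a smaller span. Of 37 measured, 18 fell and 1 rose relative to P7 Saline, and 17 were within 2-fold, with a median log2 fold change of −0.55. Of all transcripts, 27.3% were lower, 11.3% higher and 57.6% within 2-fold. Under median-ratio scaling only 5 fell and 1 rose, without replicate 1 of Saline + MG-REP 28 fell and none rose, and without replicate 2 or 3 only 9 fell. In Saline + CTRL 35 of 37 were lower than in P7 Saline, with a median of −1.70, beside 24.9% of all transcripts. Mcm2, a subunit of the replicative helicase, lay at 136.35, 146.8 and 139.95 TPM in P7 Saline, 135.68, 51.2 and 48.71 TPM in Saline + MG-REP and 13.77, 14.36 and 16.65 TPM in Saline + CTRL (log2 fold change −1.0, SE 0.22, adjusted p = 0.00103). All 3 repopulated libraries were below the neonatal ones, replicate 1 by less than 1 TPM. Pcna averaged 306.4 TPM in P7 Saline and 192.9 TPM in Saline + MG-REP and fell by 0.73 (adjusted p = 0.00167, and 0.0885 with median-ratio scaling). Orc1, which marks replication origins, showed the deepest fall of the list (−1.29, adjusted p = 0.00196), from 10.64 to 4.19 TPM. The 1 gene that rose, Dut, which removes dUTP, was low in both groups, at 0.717 and 1.64 TPM, and lost its call in 5 of 6 fits that left out 1 library. Pola1, Gins4, Rfc2 and Pold2, which build the fork, were within 2-fold, at 22.81 and 22.56, 60.54 and 56, 137.6 and 117.9, and 62.86 and 57.42 TPM. Without replicate 1, Rfc2 (−0.38, adjusted p = 0.0118) and Pold2 (−0.49, adjusted p = 0.018) were called lower, and library weights gave −0.66 for Pola1 (adjusted p = 0.000671).

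**Figure D2:**
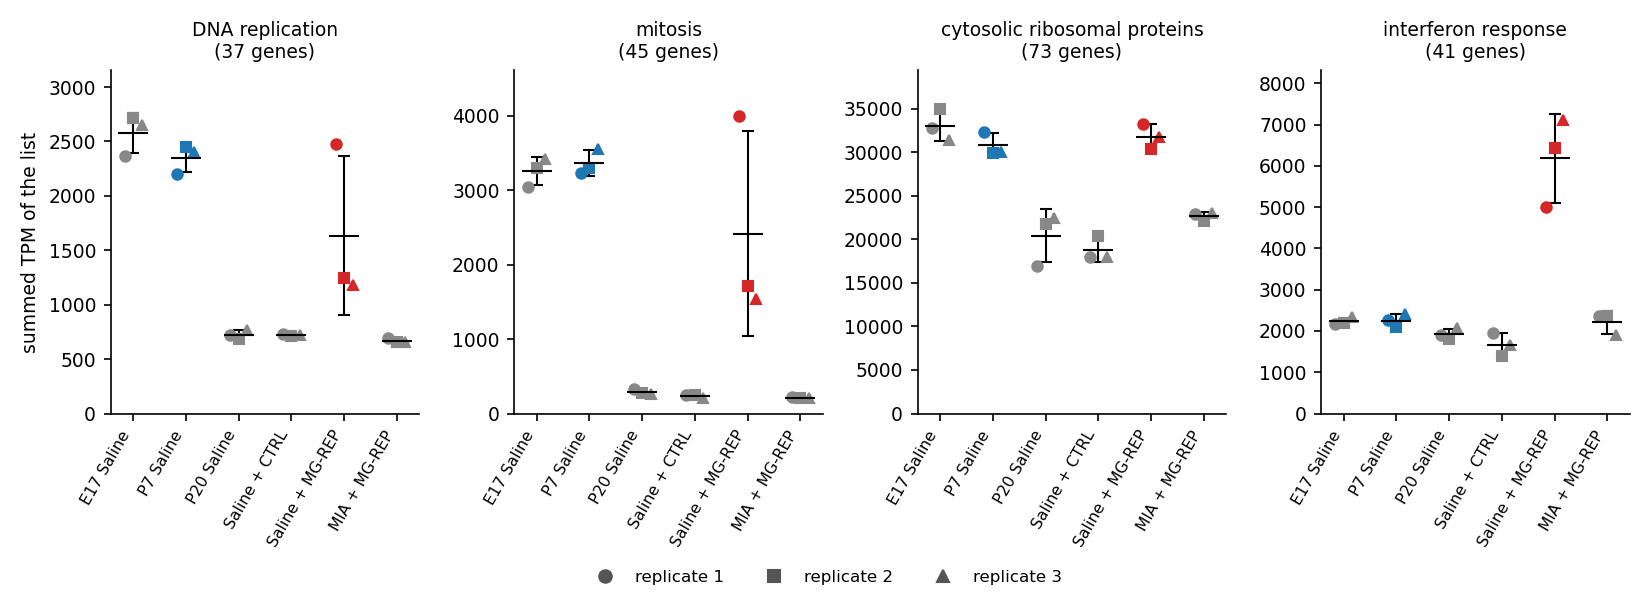
Summed TPM of 4 gene lists in each library of 6 groups, with circles, squares and triangles for replicates 1, 2 and 3, bars for the mean and SD (n = 3), P7 Saline in blue and Saline + MG-REP in red. For mitosis, Saline + MG-REP replicate 1 (4005) lies above P7 Saline (3229 to 3560) and replicates 2 and 3 (1716 and 1533) lie between P7 Saline and Saline + CTRL (211.8 to 253.6); for interferon response the 3 Saline + MG-REP libraries (5001 to 7122) lie above all others shown.

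Among regulators of the cycle, falls outnumbered rises. Of 31 measured, 12 fell, 2 rose and 17 were within 2-fold, and under median-ratio scaling 7 fell and 6 rose. Of all transcripts, 27.3% were lower, 11.3% higher and 57.6% within 2-fold. Without Saline + MG-REP replicate 2 or 3 only 7 or 6 fell. Ccnd1, the D-type cyclin of microglia, averaged 217.7 TPM in P7 Saline and 293.4 TPM in Saline + MG-REP (log2 fold change 0.44, SE 0.22, adjusted p = 0.112), with replicate 1 highest at 427.13 TPM. Cdk4, its partner kinase, fell by 0.77 (SE 0.17, adjusted p = 0.000764), from 443.9 to 271.6 TPM. Cdkn1a, the p21 inhibitor, had like levels of 36.35 and 39.67 TPM, beside 8.52 TPM in Saline + CTRL. Cdkn2a, which encodes the inhibitors p16 and ARF, was 1 of the 2 that rose, at 5.37, 3.81 and 5.71 TPM in P7 Saline, 11.06, 10.26 and 11.19 TPM in Saline + MG-REP and 0, 0 and 0.52 TPM in Saline + CTRL (log2 fold change 1.00, SE 0.38, adjusted p = 0.0382). All 3 repopulated libraries exceeded all neonatal ones, which in turn exceeded all adult ones. The call was lost in 5 of 6 fits that left out 1 library (adjusted p between 0.0499 and 0.126). Mycn, a growth-promoting transcription factor, showed the deepest fall, from 13.04, 14.36 and 12.8 TPM to 0.37, 1.05 and 1.37 TPM (−2.93, SE 0.50, adjusted p = 6.56e-05).

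Of 19 replicative chromatin genes, 7 fell, none rose and 14 were within 2-fold, and without Saline + MG-REP replicate 1 12 fell. The called share was 36.8% for replicative chromatin and 45.5% for histone genes, beside 38.7% of all transcripts (11.3% higher and 27.3% lower). Of all transcripts, 57.6% were within 2-fold. Asf1b, which hands histones to the fork, averaged 55.04 and 62.94 TPM beside 4.07 TPM in Saline + CTRL, and H2afx 184.4 and 157.7 TPM beside 32.44 TPM. Nasp, a histone chaperone, fell most (−1.86, adjusted p = 0.000492). Of 22 histone genes, 3 rose and 7 fell, 4 rose and 3 fell under median-ratio scaling, and 2 rose and 4 fell without P7 Saline replicate 2. Poly(A) selection leaves out most mRNA of replication-dependent histones, so this list describes the polyadenylated share.

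Ribosomal protein genes stood at the neonatal level in all 3 repopulated libraries. Their summed level was 32370, 29970 and 30030 TPM in P7 Saline, 33230, 30320 and 31730 TPM in Saline + MG-REP and 17960, 20370 and 18010 TPM in Saline + CTRL. The repopulated and neonatal libraries overlapped, and the adult ones lay apart. Of 73 cytosolic ribosomal protein genes, 68 were within 2-fold, 7 fell and 1 rose, with a median log2 fold change of 0.02. Of all transcripts, 57.6% were within 2-fold, 27.3% lower and 11.3% higher. Under median-ratio scaling 8 rose and 2 fell, with a median of 0.27, and without P7 Saline replicate 1 or Saline + MG-REP replicate 3 only 4 or 3 fell. In Saline + CTRL 49 were lower than in P7 Saline, with a median of −0.68, beside 24.9% of all transcripts. Rpl8, the most abundant, lay at 3211.14, 2904.16 and 2882.79 TPM in P7 Saline, 3237.65, 2638.32 and 2683.83 TPM in Saline + MG-REP and 1616.77, 1870.44 and 1550.29 TPM in Saline + CTRL (log2 fold change −0.08, SE 0.12, adjusted p = 0.639). Unlike the mitotic genes, replicates 2 and 3 did not stand apart from P7 Saline in the sum of this list. Many ribosomal protein genes have near-identical copies in the genome, and single members are uncertain for that reason.

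Oxidative phosphorylation genes were close in level too. Of 79 measured, 71 were within 2-fold, 10 rose and 4 fell, beside 57.6%, 11.3% and 27.3% of all transcripts. The median was 0.18, and under median-ratio scaling 39 rose and 1 fell. Without P7 Saline replicate 1 or Saline + MG-REP replicate 2 or 3, 6, 6 or 5 rose. Atp5b, the catalytic subunit of ATP synthase, averaged 1415 and 1359 TPM. Splicing factors went down as a list, as 21 of 32 fell and none rose, with a median of −0.51. Of all transcripts, 27.3% were lower. Under median-ratio scaling 11 fell and 1 rose. Srsf6 lay at 513.89, 511.58 and 485.25 TPM in P7 Saline and 261.81, 224.94 and 221.1 TPM in Saline + MG-REP (−1.09, SE 0.09, adjusted p = 1.49e-09), and its Saline + CTRL mean was 283.5 TPM.

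Nearly all oncofetal and imprinted growth genes fell. Of 16 measured, 15 fell, none rose and 1 was within 2-fold, with a median log2 fold change of −1.86, beside 27.3% of all transcripts that were lower. Without replicate 1 of Saline + MG-REP 13 fell, and under median-ratio scaling 15. Igf2bp3, an RNA-binding protein of fetal tissues that stabilises growth-factor mRNA, lay at 73.69, 67.91 and 71.85 TPM in P7 Saline, 5, 3.51 and 2.58 TPM in Saline + MG-REP and 1.99, 2.85 and 2.4 TPM in Saline + CTRL (−3.97, SE 0.15, adjusted p = 1.08e-14). Lin28b, which blocks maturation of let-7 microRNAs, lay at 5.2, 3.45 and 2.56 TPM in P7 Saline and at 0, 0 and 0.05 TPM in Saline + MG-REP. For Igf2bp3 and Lin28b the repopulated libraries lay with the adult ones, at or near the floor, although they carried mitotic mRNA. Igf2, a fetal growth factor, averaged 5.82 and 0.897 TPM (−1.86, adjusted p = 4.75e-05), Plagl1, an imprinted zinc finger gene, 21.4 and 4.08 TPM (−2.28, adjusted p = 0.00021), and Sox11, a factor of immature neurons, 26.2 and 1.93 TPM (−3.26, adjusted p = 4e-05). Sox4 set the repopulated libraries below both other groups, at 174 TPM in P7 Saline, 30.7 TPM in Saline + MG-REP and 146 TPM in Saline + CTRL. Igf2bp3 is at chr6:49085218-49215469 and Lin28b at chr10:45376617-45486314. Sox11, Meg3 and Ndn are also expressed by neurons, and the levels of neuronal markers are given with those of other cells.

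**Figure D3:**
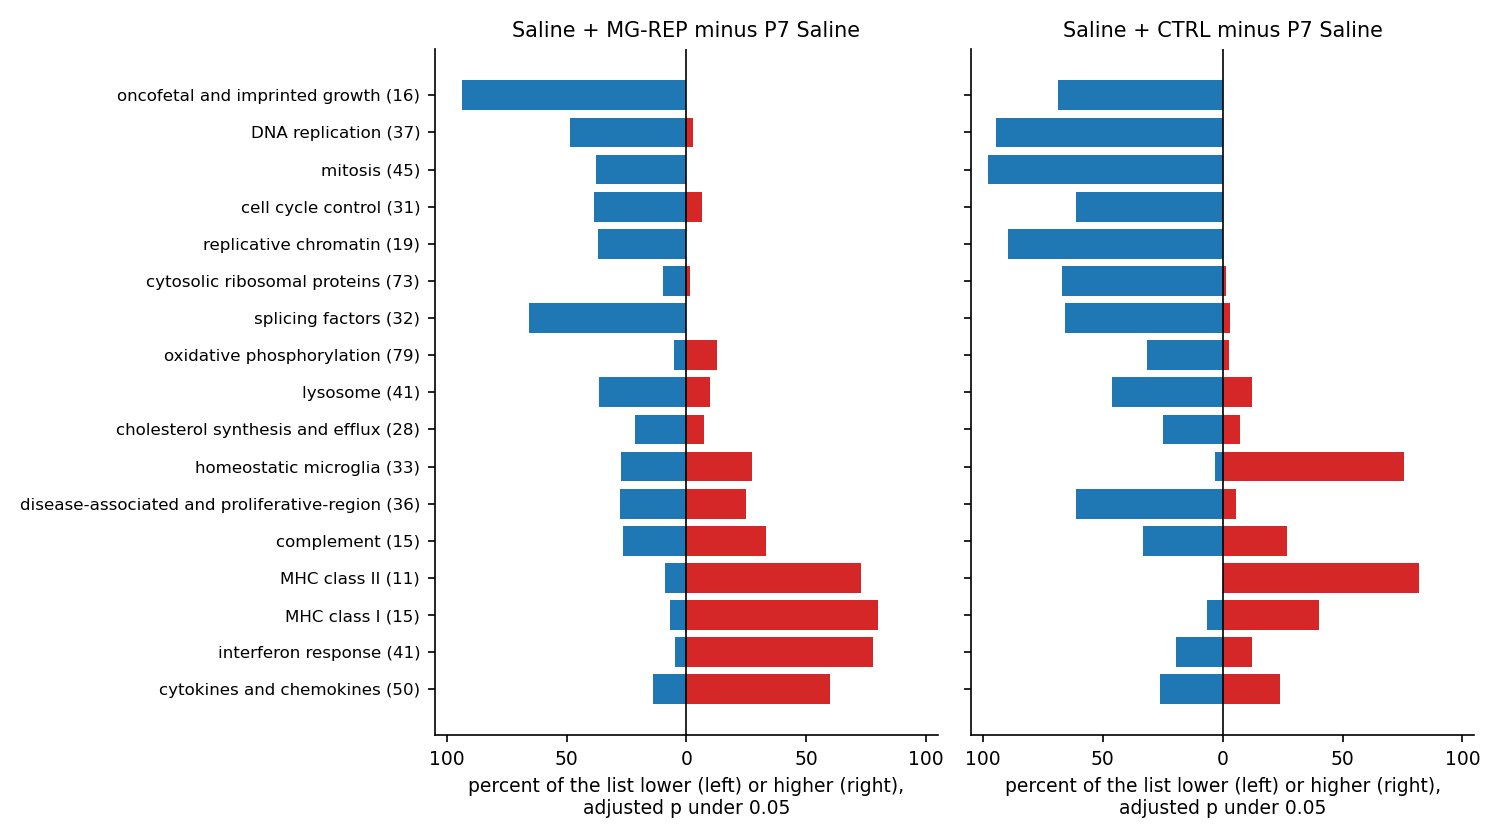
Percent of the measured members of each gene list (number in parentheses) that were lower (blue, left) or higher (red, right) at an adjusted p under 0.05, for Saline + MG-REP minus P7 Saline and for Saline + CTRL minus P7 Saline, which share the P7 Saline libraries. Of all transcripts, 27.3% were lower and 11.3% higher in the left panel, and 24.9% and 16.1% in the right panel. Mitosis has 17 of 45 lower on the left and 44 of 45 on the right; interferon response has 32 of 41 higher on the left and 5 of 41 on the right; ribosomal proteins have 7 of 73 lower on the left and 49 of 73 on the right.

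Homeostatic microglial genes, those of surveying microglia, were split. Of 33 measured, 9 rose, 9 fell and 14 were within 2-fold, with a median of −0.06. The called share was 54.5%, beside 38.7% of all transcripts (11.3% higher and 27.3% lower). Of all transcripts, 57.6% were within 2-fold. Under median-ratio scaling 10 rose and 6 fell. In Saline + CTRL 25 were higher than in P7 Saline and 1 lower, with a median of 0.77, beside 16.1% and 24.9% of all transcripts. P2ry12, the ADP receptor of microglial processes, lay at 1434.48, 2099.28 and 2358.18 TPM in P7 Saline, 608.65, 949.79 and 925.83 TPM in Saline + MG-REP and 3779.68, 3422.3 and 4720.59 TPM in Saline + CTRL (log2 fold change to P7 Saline −1.24, SE 0.24, adjusted p = 0.000212). All repopulated libraries were below all neonatal ones, which were below all adult ones. Tmem119, a surface protein of mature microglia, went the other way, with 341.12, 582.71 and 558.4 TPM in P7 Saline, 1719.55, 1520.33 and 1522.34 TPM in Saline + MG-REP and 3165.74, 2354.17 and 3459.46 TPM in Saline + CTRL (1.72, SE 0.22, adjusted p = 2.28e-06). The repopulated libraries thus stood between neonatal and adult ones in Tmem119 and outside both in P2ry12.

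Other members were divided in the same way. Between the neonatal and adult levels lay Selplg, the P-selectin ligand (361.9, 1152 and 3069 TPM in P7 Saline, Saline + MG-REP and Saline + CTRL), and Olfml3, a secreted matrix protein (1060, 2090 and 2530 TPM), and both rose relative to P7 Saline. Below both levels lay Sall1, with 318.99, 381.93 and 389.14 TPM in P7 Saline, 53.64, 168.87 and 174.8 TPM in Saline + MG-REP and 699.81, 567.09 and 710.02 TPM in Saline + CTRL (−1.62, SE 0.29, adjusted p = 0.000129). Replicate 1 had the lowest Sall1. Ecscr (211, 33.6 and 303 TPM), Serpine2, a protease inhibitor (1010, 299 and 884 TPM), Fcrls (3380, 1550 and 3120 TPM) and Cx3cr1, the fractalkine receptor (2340, 1580 and 4090 TPM), were likewise lowest in the repopulated group and fell relative to P7 Saline, though the fall of Cx3cr1 was lost with median-ratio scaling (adjusted p = 0.388) and in 4 of 6 fits that left out 1 library.

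Of 31 factors of the macrophage lineage and of TGF-β signalling 9 rose and 13 fell, beside 11.3% and 27.3% of all transcripts. Under median-ratio scaling 9 rose and 6 fell. Spi1, which encodes the lineage factor PU.1, averaged 807 and 619 TPM (−0.39, adjusted p = 0.103). Maf, a factor of mature macrophages, fell from 606 to 271 TPM (−1.15, adjusted p = 1.8e-05). Runx3, which drives TGF-β responses in lymphocytes and skin macrophages, lay at 2.56, 2.79 and 1.9 TPM in P7 Saline, 178.59, 96.34 and 77.93 TPM in Saline + MG-REP and 3.59, 2.9 and 3.25 TPM in Saline + CTRL (5.04, SE 0.29, adjusted p = 1.48e-11). The highest P7 Saline or Saline + CTRL library held 3.59 TPM. Runx3 is at chr4:135120645-135177990. Tfec, of the family of lysosomal transcription factors, fell from 29.87 to 4.85 TPM (−2.40, adjusted p = 1.28e-06). Among the CSF receptors and their ligands 3 of 12 rose and none fell, beside 11.3% and 27.3% of all transcripts. Without Saline + MG-REP replicate 1, 4 rose and 1 fell. Csf2ra, the GM-CSF receptor chain, rose from 247 to 668.1 TPM (1.45, SE 0.19, adjusted p = 2.36e-06).

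Genes known from disease-associated microglia and from the proliferative, axon-tract microglia of the first week were divided. Of 36 measured, 9 rose, 10 fell and 16 were within 2-fold, with a median of 0.02. Under median-ratio scaling 9 rose and 8 fell. The called share was 52.8%, beside 38.7% of all transcripts (11.3% higher and 27.3% lower). Itgax, which encodes CD11c, was alike in both groups, at 74.24, 105.24 and 107.41 TPM in P7 Saline and 88.46, 100.64 and 76.83 TPM in Saline + MG-REP, and lower in Saline + CTRL, at 18.85, 14.76 and 19.92 TPM (log2 fold change to P7 Saline −0.10, SE 0.21, 95% interval −0.53 to 0.33). Gpnmb, a membrane glycoprotein of lipid-laden macrophages, was not alike, at 220.62, 256 and 228.8 TPM in P7 Saline, 25.04, 20.36 and 16.72 TPM in Saline + MG-REP and 2.59, 2.46 and 1.66 TPM in Saline + CTRL (−3.46, SE 0.33, adjusted p = 2.16e-08). Each of the 3 groups was apart from the others. Lpl, lipoprotein lipase, fell from 391.8 to 72.11 TPM (−2.48, adjusted p = 3.94e-07), Ctsl, a lysosomal protease, from 1902 to 333 TPM (−2.57, adjusted p = 9.19e-09) and Atp6v0d2, a subunit of the proton pump, from 28.81 to 2.40 TPM (−3.17, adjusted p = 3.68e-09).

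The same list held some of the largest rises. Lyz2, lysozyme, lay at 1239.25, 1343.6 and 1278.93 TPM in P7 Saline, 9673.16, 7945.21 and 7456.45 TPM in Saline + MG-REP and 1158.86, 961.39 and 1206.14 TPM in Saline + CTRL (2.69, SE 0.24, adjusted p = 1.06e-08), so that neonatal and adult libraries overlapped and the repopulated ones stood above both. Cd52, a small surface glycoprotein of leukocytes, averaged 344.4, 2567 and 330.5 TPM in the same order (2.91, SE 0.18, adjusted p = 3.03e-11). Ch25h, which makes 25-hydroxycholesterol, lay at 7.96, 2.62 and 3.75 TPM in P7 Saline and 299.94, 162.69 and 119.22 TPM in Saline + MG-REP (5.08, SE 0.42, adjusted p = 2.57e-09), beside 15.63, 19.33 and 38.27 TPM in Saline + CTRL. Cst7, an inhibitor of lysosomal proteases, rose from 31.3 to 152 TPM (2.16, adjusted p = 8.16e-06). Spp1, Apoe and Trem2, also of this list, are listed at low levels of 1.20, 6.17 and 4.87 TPM in P7 Saline and did not pass the test. In this table, transcripts of genes with 1 curated RefSeq transcript had a median mean level of 25.5 TPM, and those of genes with 2 or more of 6.26 TPM, so a level may hold only part of a gene's reads, and levels were compared between libraries and not between genes.

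**Figure D4:**
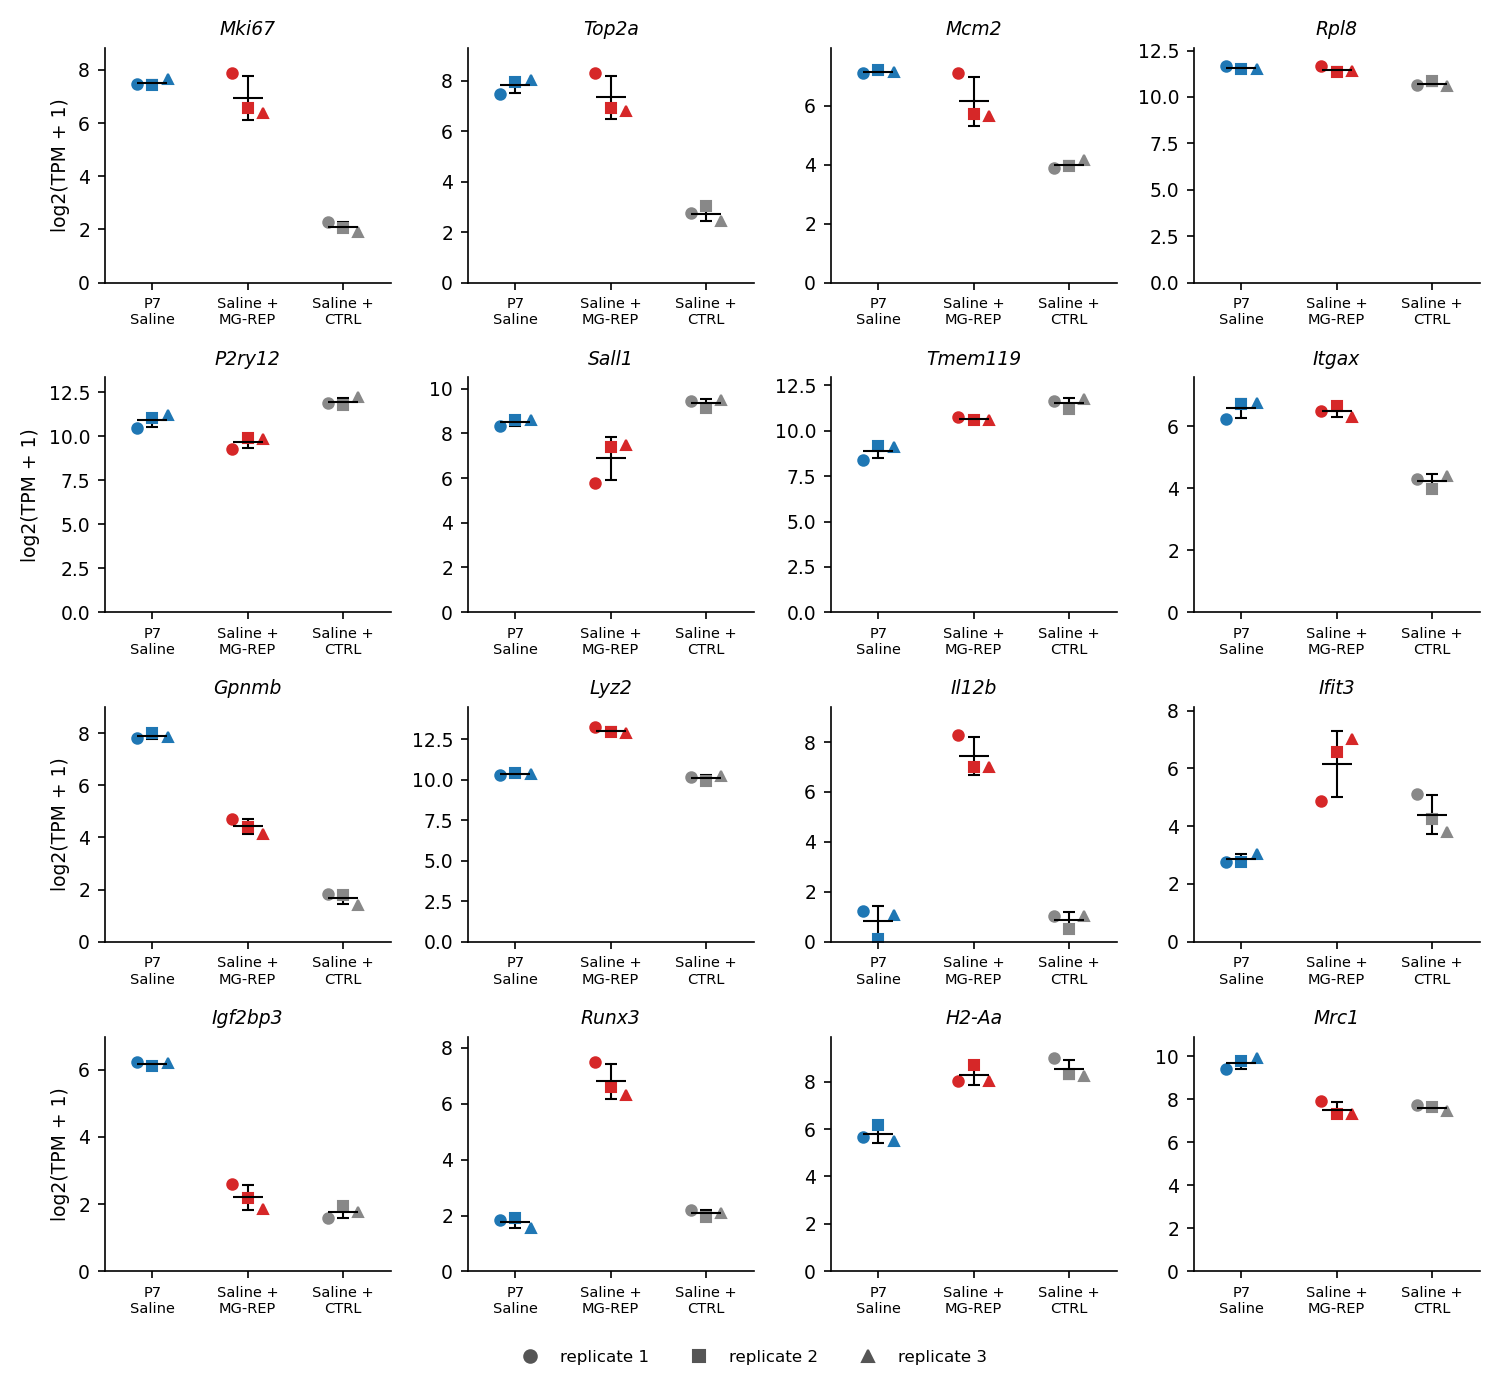
log2(TPM + 1) of 16 genes in each library of P7 Saline (blue), Saline + MG-REP (red) and Saline + CTRL (grey), with circles, squares and triangles for replicates 1, 2 and 3 and bars for the mean and SD (n = 3). Mki67, Top2a, Mcm2, Rpl8 and Itgax stand nearer to P7 Saline in Saline + MG-REP than in Saline + CTRL, Lyz2, Il12b and Runx3 stand above both other groups, and P2ry12 and Sall1 stand below both.

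Most interferon-stimulated genes rose. Of 41 measured, 32 rose, 2 fell and 8 were within 2-fold, with a median log2 fold change of 1.59, beside 11.3% of all transcripts that were higher. Under median-ratio scaling 35 rose and none fell. Without replicate 1 of Saline + MG-REP 33 rose, and without replicate 2 30 rose. In Saline + CTRL 5 of the 41 were higher and 8 lower than in P7 Saline, beside 16.1% and 24.9% of all transcripts. Oas3 lay at 0.5, 0.85 and 0.98 TPM in P7 Saline, 12.81, 32.08 and 39.21 TPM in Saline + MG-REP and 1.7, 1.34 and 3.09 TPM in Saline + CTRL (3.90, SE 0.34, adjusted p = 5.13e-09). Ifit3 lay at 5.78, 5.79 and 7.27 TPM, then 28.11, 94.15 and 129.16 TPM, then 33.81, 18.17 and 12.89 TPM (3.30, SE 0.42, adjusted p = 1.83e-06). In both genes every repopulated library stood above every neonatal one, and replicate 1, which had the most mitotic mRNA, had the least interferon-stimulated mRNA of the 3. Replicate 1 of Saline + MG-REP lay within the Saline + CTRL range in Ifit3 and above it in Oas3. Their start regions, printed above, hold the response element, once in Oas3 and 2 times in Ifit3.

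Among those that rose were sensors, effectors and feedback genes. Tlr3, the receptor for double-stranded RNA, rose from 24 to 63.9 TPM (1.35, adjusted p = 1.36e-06), Bst2, which tethers budding virus, from 369.9 to 1255 TPM (1.75, adjusted p = 1.41e-08), Zbp1, a sensor of left-handed nucleic acid, from 2.84 to 36.2 TPM (3.19, adjusted p = 1.89e-07), and Usp18, which removes ISG15 and damps the receptor, from 8.52 to 79.8 TPM (3.02, adjusted p = 2.52e-06). The 2 that fell were Irf9, a subunit of the factor that binds the response element (1.38 to 0.747 TPM, adjusted p = 0.0342), and Ifitm2 (165 to 123 TPM, adjusted p = 0.0279), and neither fall held with median-ratio scaling or without P7 Saline replicate 1. The call of Irf9 was also lost in 3 of 6 fits that left out 1 library. Oas and Ifit genes are clustered families of similar sequence, so the split of reads among members is uncertain.

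Most genes of antigen presentation rose. Of 11 MHC class II genes 8 rose and 1 fell, with a median of 1.29, beside 11.3% and 27.3% of all transcripts. In Saline + CTRL 9 were higher than in P7 Saline and none lower, beside 16.1% and 24.9% of all transcripts. Between Saline + MG-REP and Saline + CTRL 1 was higher and 4 were lower in the repopulated group. H2-Aa, a class II chain, lay at 50.06, 71.75 and 44.24 TPM in P7 Saline, 259.08, 417.9 and 261.37 TPM in Saline + MG-REP and 506.67, 316.01 and 302.92 TPM in Saline + CTRL (2.47, SE 0.30, adjusted p = 7.69e-07), so that repopulated and adult libraries overlapped above the neonatal ones. H2-DMa, which loads peptides on class II, averaged 57.91, 389.2 and 179.3 TPM (2.72, adjusted p = 6.81e-11). The 1 that fell was Cd80, a costimulatory ligand (23.67 to 16.33 TPM, adjusted p = 0.0146, 0.295 with median-ratio scaling, and lost in 1 of 6 fits that left out 1 library). Of 15 MHC class I genes 12 rose and 1 fell, with a median of 0.76. Nlrc5, the activator of class I genes, rose from 4.63 to 31.13 TPM (2.41, adjusted p = 1.5e-05) and B2m, the light chain, from 5269 to 9030 TPM (0.76, adjusted p = 0.00377). H2 class I genes are near-identical to each other, and values of single ones such as H2-K1 and H2-Q4 are uncertain.

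Cytokines and chemokines rose more often than they fell, as 30 of 50 rose and 7 fell, beside 11.3% and 27.3% of all transcripts. The median was 0.88, and under median-ratio scaling 30 rose and 4 fell. Il12b, the shared chain of interleukins 12 and 23, had the largest log2 rise of the table with all libraries, though not without Saline + MG-REP replicate 1 (6.19, beside 7.03 for Kif5a), at 1.36, 0.09 and 1.11 TPM in P7 Saline, 314.23, 126.93 and 127.81 TPM in Saline + MG-REP and 1.07, 0.44 and 1.07 TPM in Saline + CTRL (6.62, SE 0.51, adjusted p = 7.36e-10). Only the repopulated libraries of these 3 groups held it above 2 TPM. Il12b is at chr11:44400063-44414677. Il23a, the partner chain of interleukin 23, rose from 2.40 to 15 TPM (2.09, adjusted p = 8.39e-05). Il1b lay at 574.9, 349.96 and 616.76 TPM in P7 Saline and 2227.96, 2160.49 and 1743.62 TPM in Saline + MG-REP (2.02, SE 0.32, adjusted p = 3.13e-05).

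Members of the TNF ligand family were among the largest rises of all. Tnfsf8, the CD30 ligand, lay at 0.12, 0.21 and 0.1 TPM in P7 Saline, 55.99, 48.39 and 57.24 TPM in Saline + MG-REP and 2, 1.23 and 2.94 TPM in Saline + CTRL (5.58, SE 0.23, adjusted p = 1.08e-14). Tnfsf13b, the B cell survival factor BAFF, averaged 3.26, 120.8 and 29.91 TPM (4.87, SE 0.29, adjusted p = 2.32e-11). Tnf itself averaged 37.4, 56.29 and 14.62 TPM and did not pass the test (0.57, adjusted p = 0.227). Ccl5 (2.84 to 150 TPM), Cxcl16 (70.3 to 494 TPM) and Pdcd1, which encodes the receptor PD-1 (1.40 to 40 TPM), rose too. Cxcl13 is listed at 0 in all P7 Saline libraries and at 0.82, 9.37 and 9.66 TPM in Saline + MG-REP. Those that fell included the chemokines Ccl24, at 87.72, 113.69 and 173.42 TPM in P7 Saline and 2.78, 2.53 and 4.25 TPM in Saline + MG-REP (−4.88, SE 0.30, adjusted p = 3.56e-11), Ccl6 (282 to 94.8 TPM) and Ccl9 (160 to 54.6 TPM). Ccl3, the most abundant member, averaged 3011 and 2593 TPM (−0.18, adjusted p = 0.678).

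Complement genes were divided, 5 up and 4 down of 15. C2, a classical pathway protease, fell from 52.02 to 2.40 TPM (−4.04, SE 0.25, adjusted p = 4.28e-11) and Itgb2, a chain of the complement receptors, rose from 215.7 to 720.1 TPM (1.73, adjusted p = 2e-07). Immediate early genes, which respond to cell isolation, gave 4 that rose and 10 that fell of 29, 5 and 4 under median-ratio scaling, and 5 and 5 without Saline + MG-REP replicate 1. Without P7 Saline replicate 1 or 2 only 6 fell. Fos averaged 2997, 2742 and 6445 TPM in P7 Saline, Saline + MG-REP and Saline + CTRL and did not pass the test between the first 2 (−0.16, adjusted p = 0.656). Lysosome genes gave 4 that rose and 15 that fell of 41, and 4 and 8 under median-ratio scaling. Glycolysis genes gave 6 that rose and 2 that fell of 21, with the lactate carrier Slc16a1 falling from 528.8 to 42.76 TPM (−3.59, SE 0.29, adjusted p = 2.13e-09). Aldoc, an aldolase of astrocytes, rose from 4.01 to 47.67 TPM beside 60.91 TPM in Saline + CTRL. Of 28 cholesterol genes 2 rose and 6 fell, and 4 and 5 under median-ratio scaling. Library weights gave 4 and 15, and marker covariates 4 and 17. The efflux pump Abca1 fell from 585.8 to 245.2 TPM (−1.24, adjusted p = 1.88e-06). Of all transcripts, 11.3% were higher and 27.3% lower.

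The largest falls of the table were led by Aplnr, the apelin receptor, at 147.59, 142.63 and 165.77 TPM in P7 Saline, 0.4, 1.91 and 1 TPM in Saline + MG-REP and 4.01, 4.4 and 2.39 TPM in Saline + CTRL (−6.25, SE 0.41, adjusted p = 6.44e-11), at chr2:85136360-85139923. The stefin A genes Stfa1, Stfa2, Stfa3 and BC100530 and the neighbouring Gm5483 followed, with P7 Saline means between 34.25 and 110.3 TPM and Saline + MG-REP means under 1 TPM. They lie within 1 cluster on chromosome 16 and are near-identical, so they count as 1 signal of uncertain split. Stefin A genes are known from neutrophils and their precursors. Gpr165 separated the repopulated group from both others, at 19.55, 73.52 and 97.14 TPM in P7 Saline, 0.07, 1.19 and 1.54 TPM in Saline + MG-REP and 85.16, 75.45 and 118.8 TPM in Saline + CTRL (−4.87, SE 0.40, adjusted p = 2.15e-09). Retnla, a secreted product of alternatively activated macrophages, fell from 245.9 to 8.70 TPM (−4.67, adjusted p = 2.73e-08), and Igfbpl1, a binding protein of insulin-like growth factors, from 39.25 to 0.9 TPM (−4.47, adjusted p = 1.99e-06).

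Markers of other cells moved with several of these results. Of the 12 largest rises, 5 were the neuronal mRNAs Kif5a, Camk2a, Nrsn1, Ddn and Hpcal4. Kif5a, a kinesin of axons, lay at 8.56, 9.68 and 8.63 TPM in P7 Saline, 361.34, 1121.88 and 1509.19 TPM in Saline + MG-REP and 1129.23, 2137.84 and 569.54 TPM in Saline + CTRL, so that repopulated and adult libraries overlapped, and replicate 1 was the lowest of them. Of 15 neuron markers 4 rose and 1 fell, and their summed level was 204, 273.3 and 276.3 TPM in P7 Saline and 140, 447 and 586.6 TPM in Saline + MG-REP. Astrocyte markers gave 7 that rose and 1 that fell of 18, with sums of 2069, 2881 and 1870 TPM and of 1742, 4668 and 6097 TPM. Oligodendrocyte markers gave 4 that rose and 3 that fell of 16, with sums between 476.2 and 870.4 TPM and between 432.3 and 1174 TPM. Endothelial and mural markers gave 2 that rose and 6 that fell of 16, with sums between 3808 and 4341 TPM in P7 Saline and between 1215 and 2299 TPM in Saline + MG-REP. Of all transcripts, 38.7% were called, 11.3% higher and 27.3% lower. The called share was 33.3% for neuron, 44.4% for astrocyte and 43.8% for oligodendrocyte markers, and that of endothelial and mural markers was also above 38.7%. Replicate 1 of Saline + MG-REP had the lowest sum of the group for each of these 4 marker lists and the highest sum for mitosis, and the part of these cells in its mitotic level was not tested. With the neuron and oligodendrocyte sums as covariates, 18 of 45 mitosis genes fell and none rose. In that fit 32 of 41 interferon response genes rose and 2 fell, so both lists stayed within 1 call of the values above. Other lists moved more, as homeostatic genes gave 12 that rose and 9 that fell and disease-associated genes 13 and 10. Endothelial and mural markers gave 2 and 9. Sums of astrocyte, endothelial, border macrophage, monocyte and neutrophil markers were not covariates, so the fit does not cover those cells.

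**Figure D5:**
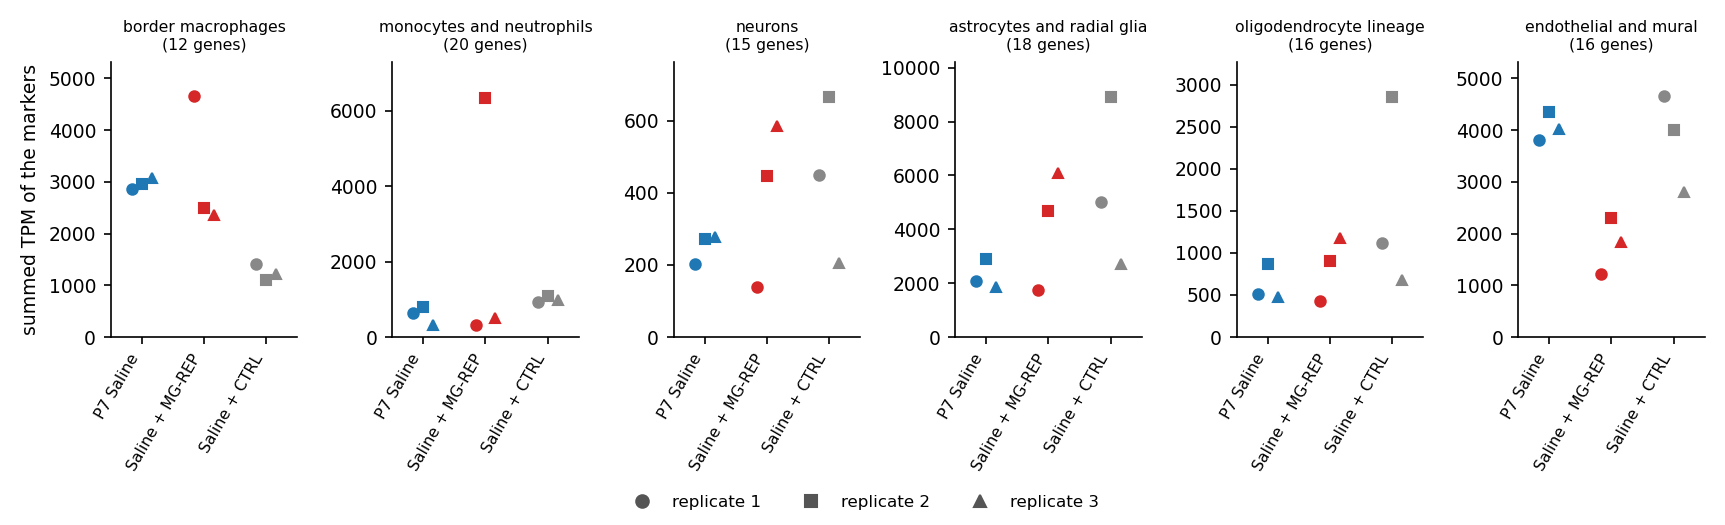
Summed TPM of the markers of 6 other cell types in each library of P7 Saline (blue), Saline + MG-REP (red) and Saline + CTRL (grey), with circles, squares and triangles for replicates 1, 2 and 3. Replicate 2 of Saline + MG-REP stands alone in monocyte and neutrophil markers at 6326, replicate 1 is lowest of its group in neuronal, astrocyte, oligodendrocyte and endothelial markers, and it is highest in border macrophage markers at 4653.

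Markers of monocytes and neutrophils gave 2 that rose and 2 that fell of 20, and 7 and 2 without Saline + MG-REP replicate 1. Their sums were 649.2, 804.1 and 324.5 TPM in P7 Saline and 312.2, 6326 and 492.5 TPM in Saline + MG-REP, and replicate 2 stood apart with 2753.57 TPM of S100a8 and 1136.06 TPM of Ngp, both neutrophil granule proteins. Ccr2, the chemokine receptor of inflammatory monocytes, rose in all 3 replicates, from 3.22, 6.58 and 4.56 TPM to 60.59, 64.09 and 49.87 TPM, beside 18.08, 19.62 and 18.68 TPM in Saline + CTRL (3.39, SE 0.28, adjusted p = 3.17e-09). Ly6c2, another monocyte gene, lay at 7.53, 4.12 and 2.02 TPM in P7 Saline and at 0.3, 42.82 and 3.42 TPM in Saline + MG-REP (0.31, adjusted p = 0.789). The part of monocytes in the level of Ccr2 was not tested. Of 12 markers of border macrophages, which line vessels and meninges, 4 rose and 5 fell. Mrc1, the mannose receptor, lay at 679.59, 872.69 and 982.52 TPM in P7 Saline and 240.81, 159.87 and 157.62 TPM in Saline + MG-REP (−2.19, SE 0.22, adjusted p = 6.63e-08). Lyve1 fell from 272.1 to 30.95 TPM and Cd209f from 32.58 to 0.473 TPM, while Cd163 was under 1 TPM in all 6 libraries. Those that rose were Clec12a, Ms4a6c, Siglec1 and Tgfbi. The summed level of the 12 markers was 2858, 2950 and 3073 TPM in P7 Saline and 4653, 2487 and 2365 TPM in Saline + MG-REP. Whether the share of border macrophages differed was not tested. Tgfbi, a matrix protein, was highest in replicate 1, at 1703.98 TPM, beside 744.01 and 642.85 TPM in the others. Lymphocyte markers gave 3 that rose and 3 that fell of 10, erythroid markers none of 7 either way, and choroid plexus markers 1 that fell of 8.

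The same contrast was made in offspring of poly(I:C)-injected dams, with libraries that the saline contrast does not share. P7 MIA replicate 3 had the lowest estimated depth of the series, at 8000000 reads. Microglia markers summed to 25580, 25790 and 17570 TPM in P7 MIA replicates 1 to 3, and astrocyte markers to 1813, 1660 and 5836 TPM. Choroid plexus markers summed to 1955, 10120 and 10200 TPM there. The part of astrocyte and choroid plexus mRNA in this contrast was not tested. Between MIA + MG-REP and P7 MIA 6088 transcripts differed (42.8%), 2093 higher and 3995 lower. Of the 5498 transcripts called in saline offspring 3440 were called in the same direction in MIA offspring, which is 62.6% of the saline list and 56.5% of the MIA list, and 112 were called in opposite directions. The log2 fold changes over all transcripts had a Pearson r of 0.747, across transcripts, which are not independent replicates. The difference between the 2 contrasts was itself tested in the fit, and 1402 transcripts passed (9.86%), 505 higher and 897 lower in MIA offspring. Without Saline + MG-REP replicate 1 it was 861, of which 608 were lower, and with library weights 2985, of which 1524 were higher and 1461 lower.

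The cell-cycle mRNA was the clearest of these differences. In MIA + MG-REP, Mki67 lay at 2.5, 3.16 and 2.65 TPM, Top2a averaged 4.87 TPM and the summed level of mitosis genes was 224.3, 209.8 and 208.4 TPM, in the range of Saline + CTRL. In MIA offspring 43 of 45 mitosis genes were lower in repopulated than in P7 microglia and none higher, and the difference between the contrasts passed for 41 of 45, all lower, beside 6.31% of all transcripts. For Mki67 that difference was −5.02 (SE 0.34, adjusted p = 1.72e-09). All 3 Saline + MG-REP libraries thus had more mitotic mRNA than any MIA + MG-REP library of the same age. In MIA offspring 25 of 41 interferon response genes were higher in repopulated than in P7 microglia and 6 lower, with a median of 0.77. Of all transcripts, 14.7% were higher and 28.1% lower there. For 12 of the 41 the contrasts differed, all lower in MIA offspring. The summed level of that list was 2373, 2353 and 1893 TPM in MIA + MG-REP and 2230, 2040 and 2025 TPM in P7 MIA. In Saline + MG-REP it was 5001, 6431 and 7122 TPM. Homeostatic genes differed in 14 of 33, all higher in MIA offspring, beside 3.55% of all transcripts. Runx3 lay at 7.89, 8.18 and 4.68 TPM and Tnfsf8 at 32.85, 30.88 and 28.31 TPM in the 3 MIA + MG-REP libraries, with a difference between the contrasts of −3.40 for Runx3 (SE 0.42, adjusted p = 4.52e-06) and −0.85 for Tnfsf8 (SE 0.32, adjusted p = 0.0988).

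The study had placed the transcripts of the table in 5 modules by clustering them over these libraries, so the modules are a description and no evidence of their own. Of 4681 transcripts of the immature module 2091 were lower in Saline + MG-REP than in P7 Saline and 25 higher, of 2318 in the juvenile module 412 were lower and 92 higher, and of 3276 in the adult module 941 were higher and 61 lower. Of 1134 in the module of repopulated adult microglia 551 were higher and none lower. In the MIA immature module 1325 of 2816 were lower and none higher. Lower were 44.7% of the immature, 47.1% of the MIA immature, 17.8% of the juvenile and 1.86% of the adult module, beside 27.3% of all transcripts. Higher were 28.7% of the adult module and 48.6% of the module of repopulated adult microglia, beside 11.3% of all transcripts. The immature module, the largest, held most of the falls, though a larger share of the MIA immature module fell. More transcripts of the immature module stayed uncalled than fell.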

How the data were processed

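RNA of CD11B bead-isolated microglia was sequenced. Per the labels and the study's methods, the libraries were poly(A)-selected and did not keep strand. Reads were mapped by the authors to the mm10 build (Rsubread), assigned to UCSC gene models by featureCounts and filtered on CPM. The values deposited are TPM for each RefSeq transcript, and their formula is not given in the sources used here. Without strand, overlapping and antisense genes share reads. The deposited TPM are not counts, so no count model was fitted.

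TPM were taken as log2(TPM + 1) and fitted for 30 libraries in 10 groups with limma 3.58.1 in R 4.3.3 (moderation with a trend, two-sided, Benjamini-Hochberg over 14225 transcripts at 0.05). A fold change on this scale understates changes of low transcripts. Nothing was filtered out. A transcript was within 2-fold where its 95% interval lay inside 2-fold either way. Depth was estimated from the steps between low TPM for transcripts with a length (98.45%), for which 70.2 to 74.3% of values per library of these groups lay within 0.2 of a whole read. Replicates were separate brains, or separate pools at P7. The deposited file names the module of each transcript, and no comparison columns were used.

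Members and gene lists were chosen with earlier results of these data known. Named genes were drawn from the 12 largest called rises and falls without overlap between libraries (1 transcript per symbol), not all of which are described, and from the gene lists. For the difference between MIA and saline offspring, the 3 largest each way were named. Replicate numbers did not pair the samples (correlations of same-numbered deviations −0.039, 0.147 and −0.131). On simulated data with 14225 transcripts, changes of 0.5, 1, 2 and 4 on the log2 scale were called in 30, 64, 94 and 100% of 50 transcripts each. The noise was independent and normal, no library was made an outlier, and only transcripts with a mean log2 level above 2 were changed. Far fewer transcripts changed than were called in the data, so these shares do not give the power of the real contrast. RefSeq genes of GRCm38.p6 matched 14121 transcripts (99.27%) and gave coordinates and start regions. Motifs were searched on both strands of the 250 bases before the start. Figures were drawn with matplotlib 3.10.9.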

Additional observations from a re-analysis of the deposited data

Results flagged for a closer look

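The difference between Saline + MG-REP and P7 Saline was compared with that between MIA + MG-REP and P7 MIA by an interaction term in limma, and 1402 transcripts differed between the offspring at an adjusted p under 0.05, or 861 without Saline + MG-REP replicate 1. The 3 largest differences each way were given. Lower in MIA offspring were Il12b by −5.47 on the log2 scale (adjusted p = 1.27e-05), with 3.98, 2.35 and 1.65 TPM in MIA + MG-REP beside 314.23, 126.93 and 127.81 TPM in Saline + MG-REP, Ube2c by −5.39 (adjusted p = 1.01e-07) and Mki67 by −5.02 (adjusted p = 1.72e-09). Higher in MIA offspring were Upk1b, a tetraspanin, by 3.89 (adjusted p = 9.3e-05), Gp9, a platelet glycoprotein gene, by 3.29 (adjusted p = 2.44e-05), and Mlph, an adaptor of melanosome transport, by 3.21 (adjusted p = 7.65e-05). Upk1b lay at 0.41, 2.15 and 3.25 TPM in Saline + MG-REP, 27.73, 43.19 and 41.96 TPM in MIA + MG-REP and 134.75, 82.73 and 122.63 TPM in Saline + CTRL, so that these libraries formed an order without overlap. Mlph was arranged alike, with means of 3.19 TPM in Saline + MG-REP and 91.37 TPM in Saline + CTRL.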

How the results depend on the processing

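Depth was estimated and not given, a group held 3 libraries, and age, chow, pooling and sex moved together. Leaving out 1 library at a time gave 4484 to 5362 calls for Saline + MG-REP against P7 Saline, 5069 to 5571 for MIA + MG-REP against P7 MIA, 861 to 1570 for the difference between them, 9 to 28 for DNA replication, 9 to 37 for mitosis, 8 to 14 for cell cycle control, 5 to 12 for replicative chromatin, 3 to 5 for CSF receptors, 4 to 10 for ribosomal proteins, 7 to 16 for oxidative phosphorylation and 6 to 9 for histones. Median-ratio scaling gave 6 calls for DNA replication, 10 for mitosis, 5 for CSF receptors, 9 for immediate early genes, 12 for lysosome, 12 for splicing factors and 40 for oxidative phosphorylation, and medians of −0.113 for lineage factors, 0.457 for CSF receptors, 1.118 for cytokines, 0.078 for lysosome, 0.625 for glycolysis, −0.281 for splicing factors, 0.265 for ribosomal proteins, 0.424 for oxidative phosphorylation and 0.151 for histones. Quantile normalization gave 12 calls for DNA replication and 23 for oxidative phosphorylation, and medians of −0.17 for lineage factors and 0.571 for glycolysis. Library weights gave 2985 calls for the difference between offspring, 33 for DNA replication, 40 for mitosis, 16 for replicative chromatin, 5 for CSF receptors, 13 for glycolysis, 19 for cholesterol genes, 13 for ribosomal proteins and 30 for oxidative phosphorylation, a median of −0.228 for histones, and turned Pola1 from 0.00 to −0.66 (adjusted p = 0.000671). A fit of only the groups compared gave 745 calls for the difference between offspring, 5 for DNA replication, 3 for mitosis, 3 for cell cycle control, 4 for ribosomal proteins and 7 for oxidative phosphorylation, from fewer samples. Marker covariates, chosen after seeing the data, gave 21 for cholesterol genes. A pseudocount of 0.1 gave a distance of 1.331 and an oncofetal median of −2.555, the median absolute difference a distance of 0.463, and a bound of 1.5-fold 3675 transcripts. The cause of these changes was not tested. With the replicate block 5482, 5999 and 1314 transcripts were called in the 3 contrasts, and the block moved no count of the lists by over 1.5 times; same-numbered libraries correlated at −0.039, 0.147 and −0.131, and not every library correlated best with its own number. The other 729 values of counts, medians and distances stayed within 1.5 times the count or the spread.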
